A study of Caenorhabditis elegans with 20 samples.

Results

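Nuclear hormone receptors are transcription factors that bind DNA through zinc fingers and, in many cases, take a small lipid-like molecule as ligand. The receptor genes described here are those of Caenorhabditis elegans whose symbol is nhr- followed by a number, without nhr-23 and nhr-25. The deposited table lists 267 such genes among 46284 genes. Of these, 178 (66.7%) reached 0.5 FPKM in at least 4 of the 20 samples, and they are the members of the family followed here. FPKM are fragments mapped to a gene, corrected for transcript length and for the sample's total. Of the other 89 receptor genes, 12 were listed at 0 in every sample.

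Whole worms of 5 strains were sampled on day 1 of adulthood with 4 replicates each, collected by the authors' account in independent experiments, and their poly-A RNA was sequenced. The mutants were ivd-1(tm6784), a loss-of-function allele of isovaleryl-CoA dehydrogenase, which acts in leucine breakdown, and bcat-1(hh58), a premature stop in the branched-chain aminotransferase that takes the first step of branched-chain amino acid breakdown. A strain with both alleles, ivd-1(tm6784); bcat-1(hh58), is called the double mutant below, and hecd-1(tm2371) is a mutant of a HECT-type E3 ubiquitin ligase. The reference was wild-type, and all strains derive from Bristol N2. Worms were grown at 20°C on OP50 bacteria and synchronised by egg preparation. The study describes slower development of bcat-1(hh58) and kept it to day 1 of adulthood by timing the collection.

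In most animals this superfamily is small, whereas nematodes carry a greatly expanded set that derives largely from an ancestor of HNF4, a fat and sugar regulator of the vertebrate liver. Several members are known regulators of intestinal metabolism: NHR-49 and its partners NHR-80, NHR-13 and NHR-66 act on fatty acid desaturation and breakdown, NHR-10 and NHR-68 switch on an alternative propionate breakdown route when vitamin B12 is low, and NHR-114 acts on the methionine cycle. For a large share of the family neither a ligand nor a function is known. In whole worms, a change in the amount of a tissue and a change in the RNA per cell cannot be told apart.

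The sum of FPKM lay between 1004157 and 1136133 per sample, and the depth relative to the median sample, read from the value of a single fragment in low genes, lay between 0.94 and 1.07. The number of reads is unknown from FPKM, so no counting interval is given. The FPKM of ivd-1 was 149 to 162 in ivd-1(tm6784) and 59.7 to 65.9 in the double mutant, against 206 to 230 in wild-type. The FPKM of hecd-1 was 21.5 to 23.3 in hecd-1(tm2371), against 32.3 to 33.7 in wild-type. The FPKM of bcat-1 lay between 197 and 218 in its own mutant bcat-1(hh58), against a wild-type range of 123 to 145, and a stop allele need not lower the RNA. All 11 intestine and 11 neuron markers were above 0 in every strain, and germline markers were high throughout, although him-3 and rme-2 were listed at 0 in single samples, him-3 in 1 sample each of bcat-1(hh58), the double mutant and wild-type and rme-2 in 1 sample of hecd-1(tm2371).

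Receptor RNAs were mostly of low abundance. The median member had a mean of 2.49 FPKM in wild-type, against 7.65 FPKM for all 15957 genes tested. In wild-type, 23 members had a mean of 10 FPKM or more, 118 lay between 1 and 10 FPKM, and 37 lay under 1 FPKM. Of the members, 151 reached 0.5 FPKM in all 20 samples, and 0 members passed through the samples of a single strain only. Just inside the rule, by the fourth-highest value, were nhr-113 with 0.507 FPKM and nhr-260 with 0.529 FPKM. Just outside it were nhr-167 with 0.474 FPKM and nhr-249 with 0.468 FPKM.

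The family is crowded on chromosome V in the WBcel235 annotation. This chromosome held 114 of the 178 members (64%), against 20.0% of all genes tested. By their median its members were the lowest, with a value of 1.78 FPKM in wild-type, whereas the medians of the other chromosomes lay between 4.79 FPKM on chromosome II and 7.40 FPKM on chromosome III. Exons of 10 members overlapped those of another coding gene on the same strand and those of 28 did so on the other strand. Among the genes named below, nhr-40 and nhr-57 have a partner on the same strand, and nhr-6, nhr-8, nhr-19, nhr-47, nhr-50, nhr-64, nhr-66, nhr-69, nhr-85, nhr-86 and nhr-91 have one on the other strand. The values of these 13 genes are therefore less certain, since the strand setting of the counting is not given in the sources used here.

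The first question was how the receptors differed between each mutant and wild-type. Values were compared as log2(FPKM + 0.5) with limma, two-sided, and a call means an adjusted p, after Benjamini and Hochberg over all genes tested, of no more than 0.05. On the FPKM as deposited, the called receptors of the 3 branched-chain amino acid mutants were nearly all higher than in wild-type. In ivd-1(tm6784), 67 members were called higher and 0 lower, where 19.9% of all genes tested were called higher and 2.88% lower. The higher members were 37.6% of the family, and at an unadjusted p under 0.05 limma gave 95 higher and 1 lower. In bcat-1(hh58), 103 members (57.9%) were higher and 2 (1.12%) lower, against 33.9% and 10.3% of all genes. In the double mutant, 78 members (43.8%) were higher and 6 (3.37%) lower, against 26.4% and 11.9%. In hecd-1(tm2371), 13 members (7.3%) were higher and 7 (3.93%) lower, against 14.0% and 7.15%, so that both shares lay below those of all genes. The share of all genes called higher there was largest at a mean of 10 FPKM or more, at 21.9%, against 14.3% of members. Of the members of 3 to 10 FPKM, 6.35% were higher, against 7.24% of genes. At 1 to 3 FPKM it was 4.84% against 6.43%, and under 1 FPKM 8.0% against 5.32%.

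**Figure D1:**
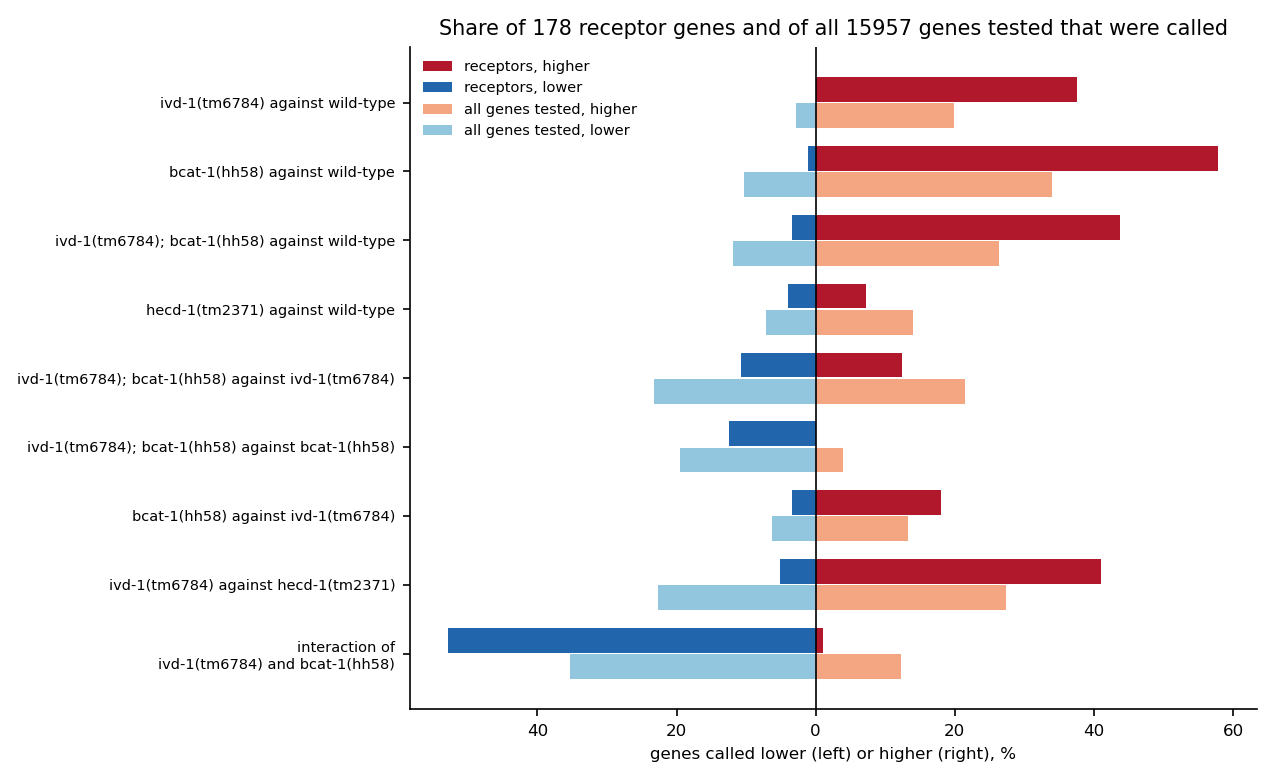
Share of the 178 receptor genes (dark bars) and of all 15957 genes tested (light bars) called lower (left of 0) or higher (right of 0) in each of 9 comparisons on the deposited FPKM, in %. In bcat-1(hh58) against wild-type, 57.9% of the receptors and 33.9% of all genes were called higher, but under quantile normalization 14.6% of the receptors were called higher and 23.6% lower, against 15.9% and 30% of all genes.

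The changes were small. Over the 178 members the median log2 fold change was 0.30 for ivd-1(tm6784), 0.42 for bcat-1(hh58), 0.24 for the double mutant and 0.05 for hecd-1(tm2371), where the medians of all genes tested were 0.11, 0.17, 0.10 and 0.08. A called rise of at least 2-fold was found for 3 members in ivd-1(tm6784), 19 members in the strain bcat-1(hh58) and 6 in the double mutant. A called fall of that size was found for 1 member in bcat-1(hh58) and 1 in the double mutant. The share of all genes with calls of that size is not given here, so these counts have no background.

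In ivd-1(tm6784) and bcat-1(hh58) the direction of the family's median depended on how the samples were scaled, and so did that of all genes tested. Median-of-ratios scaling moved the median of all genes by -0.09 for ivd-1(tm6784), -0.16 for bcat-1(hh58), -0.08 in the double mutant and -0.04 in hecd-1(tm2371). Under it 51 members (28.7%) were higher and 1 (0.562%) lower for ivd-1(tm6784), against 15.3% and 10.1% of all genes. For bcat-1(hh58) it was 80 (44.9%) and 7 (3.93%), against 24.0% and 25.5%. The double mutant had 63 (35.4%) and 6 (3.37%), against 19.5% and 16%, and hecd-1(tm2371) had 9 in each direction (5.06%), against 5.34% and 8.45%. In the first 3 of these strains the share of receptors called higher thus stayed above that of all genes. Quantile normalization, which gives every sample the same distribution of values, moved that median by -0.21, -0.30, -0.11 and -0.07 in the same order of strains. After it 8 members (4.49%) were higher and 6 (3.37%) lower for ivd-1(tm6784), against 8.75% and 14.2% of all genes. For bcat-1(hh58) there were 26 (14.6%) higher and 42 (23.6%) lower, against 15.9% and 30%. The double mutant kept more members higher than lower, 29 (16.3%) against 8 (4.49%), where all genes had 14.8% and 18.7%. In hecd-1(tm2371) it was 5 (2.81%) and 7 (3.93%), against 5.65% and 8.08%. The median receptor was then -0.12 for ivd-1(tm6784), -0.10 for bcat-1(hh58), 0.05 for the double mutant and -0.02 for hecd-1(tm2371), where the medians of all genes were -0.10, -0.14, -0.01 and 0.01. In the double mutant 102 of the 178 members still lay above 0. A smaller group held the same call under all 3 scalings: 8 members for ivd-1(tm6784), 28 for bcat-1(hh58), 35 in the double mutant and 11 in hecd-1(tm2371). The matching share of all genes is not given here, so these counts are not read as a trait of the receptors.

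**Figure D2:**
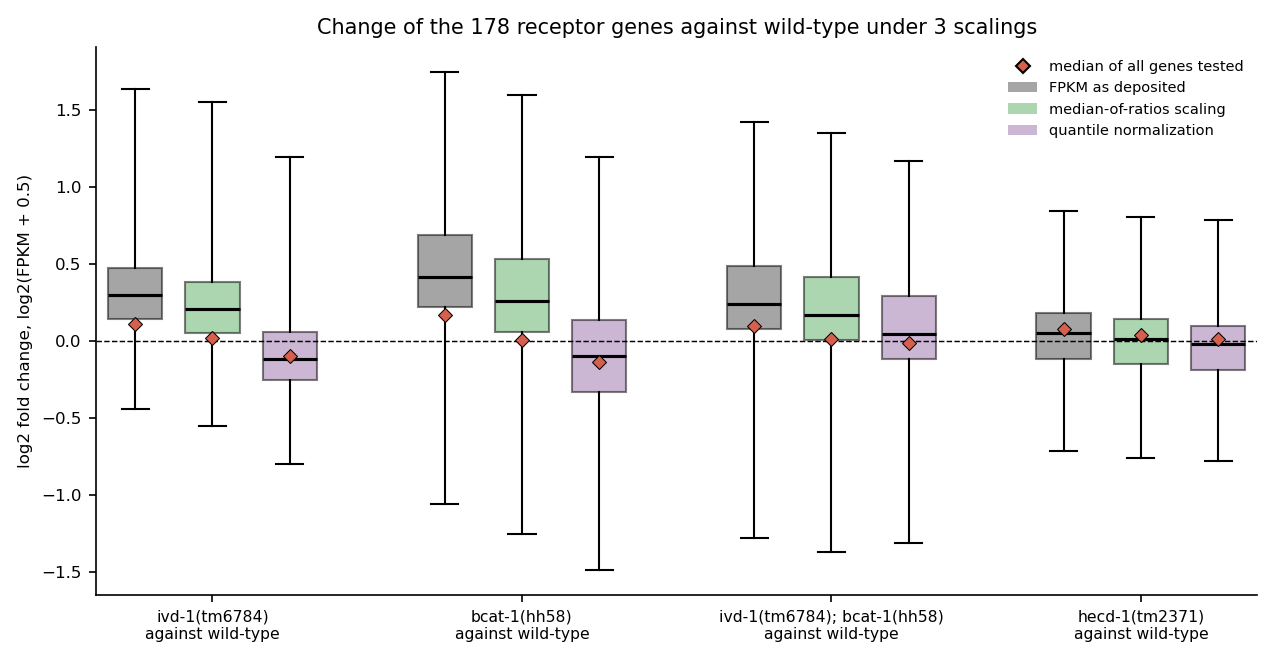
Log2 fold change of the 178 receptor genes against wild-type in each mutant under 3 scalings; boxes span the quartiles with the median, whiskers the whole range, and diamonds mark the median of all genes tested. In bcat-1(hh58) the median receptor lay at 0.42 on the deposited FPKM and at -0.10 after quantile normalization, which turned its direction, while the median of all genes lay at 0.17 and at -0.14.

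On the deposited FPKM, genes of 1 to 10 FPKM were called higher more often than those of 10 FPKM or more in bcat-1(hh58), both among the receptors and among all genes. In bcat-1(hh58), 44 of 63 members with a mean of 3 to 10 FPKM over the samples were called higher (69.8%), against 47.7% of the 3148 genes of this band. Among the members with 1 to 3 FPKM, 35 of 62 were higher (56.5%), against 41.7% of genes. Below 1 FPKM it was 10 of 25 members (40.0%), against 35.4% of genes, and at 10 FPKM or more 14 of 28 members (50.0%), against 25.1% of genes. In ivd-1(tm6784) the members of 3 to 10 FPKM had a share of 52.4%, against 28.4% of genes. It was 20.0% against 16.5% under 1 FPKM, 33.9% against 24.6% at 1 to 3 FPKM and 28.6% against 15.9% at 10 FPKM or more. In both bands under 3 FPKM the median receptor lay no higher than the median gene. Its log2 fold change was 0.22 against 0.26 and 0.32 against 0.33 in ivd-1(tm6784), and 0.32 against 0.38 and 0.41 against 0.43 in bcat-1(hh58). From 3 FPKM up the median receptor lay above the median gene in both strains. These values are a description of the bands and were not tested. Quantile normalization left fewer members called higher than lower in bcat-1(hh58), as it did over all genes.

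Genes of the molt and the larval cuticle moved with the receptors. The summed FPKM of 12 such genes was 153 to 372 for ivd-1(tm6784), 231 to 799 for bcat-1(hh58), 118 to 183 in the double mutant and 42.2 to 103 in hecd-1(tm2371), against 31.9 to 55.5 in wild-type. All 12 had values above 0 in every strain, and 11 of the 12 rose in ivd-1(tm6784), all 12 for bcat-1(hh58), 11 in the double mutant and 1 in hecd-1(tm2371), which quantile normalization left at 9, 11, 11 and 1. Over all genes the shares called higher on the deposited FPKM were 19.9%, 33.9%, 26.4% and 14.0%. The median difference of the receptors from the wild-type mean was 0.28, 0.40, 0.26 and 0.29 in the ivd-1(tm6784) samples. It was 0.53, 0.33, 0.60 and 0.40 in the bcat-1(hh58) samples, where the molting sums were 488, 231, 799 and 437 FPKM. In the double mutant it was 0.32, 0.34, 0.17 and 0.26, and in hecd-1(tm2371) it lay between 0.02 and 0.06, against -0.04 to 0.02 in wild-type. The ivd-1(tm6784), bcat-1(hh58) and double mutant samples did not overlap wild-type on either axis. Summed over the germline list, values were 3969 to 4611 FPKM in ivd-1(tm6784), all below wild-type, and 3709 to 5018 FPKM for bcat-1(hh58), against 4914 to 5275 FPKM in wild-type. It was 4638 to 5684 FPKM in the double mutant and 5368 to 6445 FPKM in hecd-1(tm2371). The sum of the neuron list was 327 to 339 FPKM for ivd-1(tm6784), 346 to 389 FPKM for bcat-1(hh58), 331 to 343 FPKM in the double mutant and 300 to 324 FPKM in hecd-1(tm2371), against 275 to 300 FPKM in wild-type. That of the intestine list was 1440 to 1769 FPKM for ivd-1(tm6784), 1177 to 1524 FPKM for bcat-1(hh58), 826 to 1246 FPKM for the double mutant and 798 to 945 FPKM for hecd-1(tm2371), against 1196 to 1426 FPKM in wild-type. The part of these lists in the receptor values was not tested.

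**Figure D3:**
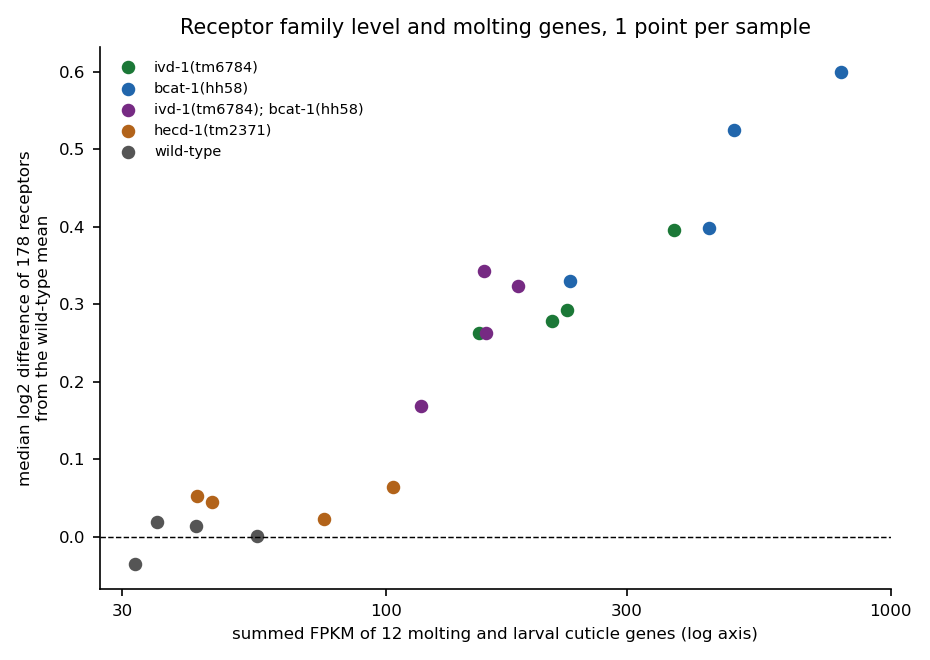
Median log2 difference of the 178 receptors from the wild-type mean (vertical) against the summed FPKM of 12 molting and larval cuticle genes (horizontal, log axis), 1 point per sample on the deposited FPKM. bcat-1(hh58) replicate 3 is highest on both axes, at 0.60 and 799 FPKM, and after quantile normalization the median receptor of bcat-1(hh58) and of ivd-1(tm6784) turned to below wild-type, as did that of all genes.

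The receptor with the highest FPKM was among the few that were lower. NHR-114 protects the germline when methionine-cycle metabolites are short, and nhr-114 (WBGene00003704, V:4187202-4190008 in WBcel235) alone made up 11.6% to 15.6% of the summed receptor FPKM in wild-type. Its FPKM was 70.0, 70.7, 51.1 and 76.4 in bcat-1(hh58) and 83.5, 63.4, 32.2 and 61.2 in the double mutant, against 142, 158, 111 and 148 in wild-type. Every sample of bcat-1(hh58) and of the double mutant lay below every wild-type sample. The ivd-1(tm6784) samples had 113, 104, 82.5 and 111 FPKM and the hecd-1(tm2371) samples 142, 133, 91.6 and 118 FPKM, and both overlapped wild-type. The log2 fold change of nhr-114 was -1.06 ± 0.22 in bcat-1(hh58) (SE, adjusted p = 0.00082) and -1.28 in the double mutant (adjusted p = 0.00029), and both calls held under all 3 scalings and without any single sample. In ivd-1(tm6784) it was -0.44 (adjusted p = 0.16) and in hecd-1(tm2371) -0.21 (adjusted p = 0.55) in this model, which has no term for the replicate number. The double mutant was also lower than ivd-1(tm6784), by -0.84 (adjusted p = 0.0065), although its replicate 1 overlapped the lowest ivd-1(tm6784) sample. In each of the 5 strains replicate 3 was the lowest. With the replicate number as a block, nhr-114 was called lower in ivd-1(tm6784) by limma (adjusted p = 0.0161) but not in hecd-1(tm2371) (adjusted p = 0.225). It was lower than wild-type in 4 of 4 same-numbered samples in both.

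Of the B12-linked receptors, nhr-10 was higher in the 3 branched-chain amino acid mutants on the deposited FPKM and nhr-68 was not called against wild-type in any strain by the same model. For nhr-10 the FPKM was 18.0, 17.8, 16.02 and 16.3 in ivd-1(tm6784), 20.3, 18.8, 17.1 and 19.3 FPKM in bcat-1(hh58) and 17.5, 16.6, 19.2 and 17.6 in the double mutant, against 16.9, 13.2, 14.2 and 11.8 in wild-type. The bcat-1(hh58) samples all lay above wild-type, and the other mutants overlapped its replicate 1. The log2 fold change of nhr-10 was 0.42 ± 0.08 in bcat-1(hh58) (SE, adjusted p = 0.00052) and 0.33 in the double mutant (adjusted p = 0.005), and neither was called after quantile normalization. In ivd-1(tm6784) it was 0.28 (adjusted p = 0.024) and was lost under both other scalings. Without wild-type replicate 4 it was also lost (adjusted p = 0.0964), as it was without wild-type replicate 2 or ivd-1(tm6784) replicate 1 or 2. In hecd-1(tm2371) nhr-10 averaged 15.6 ± 0.29 FPKM (SD, n = 4), with no call. The FPKM of nhr-68 was 47.4, 57.6, 42.6 and 50.6 in ivd-1(tm6784), 57.8, 50.7, 41.2 and 44.1 FPKM in bcat-1(hh58), 48.0, 40.6, 30.1 and 36.6 in the double mutant and 43.6, 46.4, 33.8 and 36.5 in hecd-1(tm2371), against 39.3, 42.3, 39.2 and 41.3 in wild-type. The double mutant was lower than ivd-1(tm6784) by -0.36 (adjusted p = 0.039), a call lost without any of 5 samples, among them replicate 3 of the double mutant (adjusted p = 0.155).

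The known targets of NHR-10 and NHR-68 in the propionate shunt were lower in the mutants where they were called. Of 5 such genes (acdh-1, ech-6, hach-1, hphd-1 and alh-8), 3 were lower in ivd-1(tm6784), 5 for bcat-1(hh58), 5 in the double mutant and 3 in hecd-1(tm2371), and 0 were higher in any of them by limma, where 2.88%, 10.3%, 11.9% and 7.15% of all genes were lower. The median log2 fold change of the 5 genes was -0.37 for ivd-1(tm6784), -1.45 for bcat-1(hh58), -1.62 in the double mutant and -0.35 in hecd-1(tm2371), where the medians of all genes tested were 0.11, 0.17, 0.10 and 0.08. The counts were alike under all 3 scalings except in hecd-1(tm2371), where quantile normalization left 1. The paper also counts hach-1 among the enzymes that break down branched-chain amino acids, the pathway of the ivd-1 and bcat-1 mutations. The part of the receptors in the values of these 5 genes was not tested. For acdh-1, the acyl-CoA dehydrogenase at the head of the shunt, the FPKM was 1061, 1130, 798 and 1084 in ivd-1(tm6784), 572, 561, 335 and 475 for bcat-1(hh58) and 613, 485, 261 and 405 in the double mutant, against 1314, 1358, 1196 and 1324 in wild-type. All samples of these 3 mutants lay below wild-type, and the call was passed in bcat-1(hh58) and in the double mutant. Of 7 genes linked to the methionine cycle and NHR-114, 2 were higher and 2 lower in bcat-1(hh58), 2 higher in ivd-1(tm6784), 2 lower in the double mutant and 1 lower in hecd-1(tm2371). Of all genes, 33.9% were higher and 10.3% lower in bcat-1(hh58), and 19.9% higher in ivd-1(tm6784). These 7 genes depended on the scaling, since median-of-ratios gave 0 higher and 3 lower in bcat-1(hh58), 1 higher in ivd-1(tm6784) and 3 lower in the double mutant, and quantile normalization 2 higher and 3 lower in bcat-1(hh58) and 0 of either kind in hecd-1(tm2371).

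**Figure D4:**
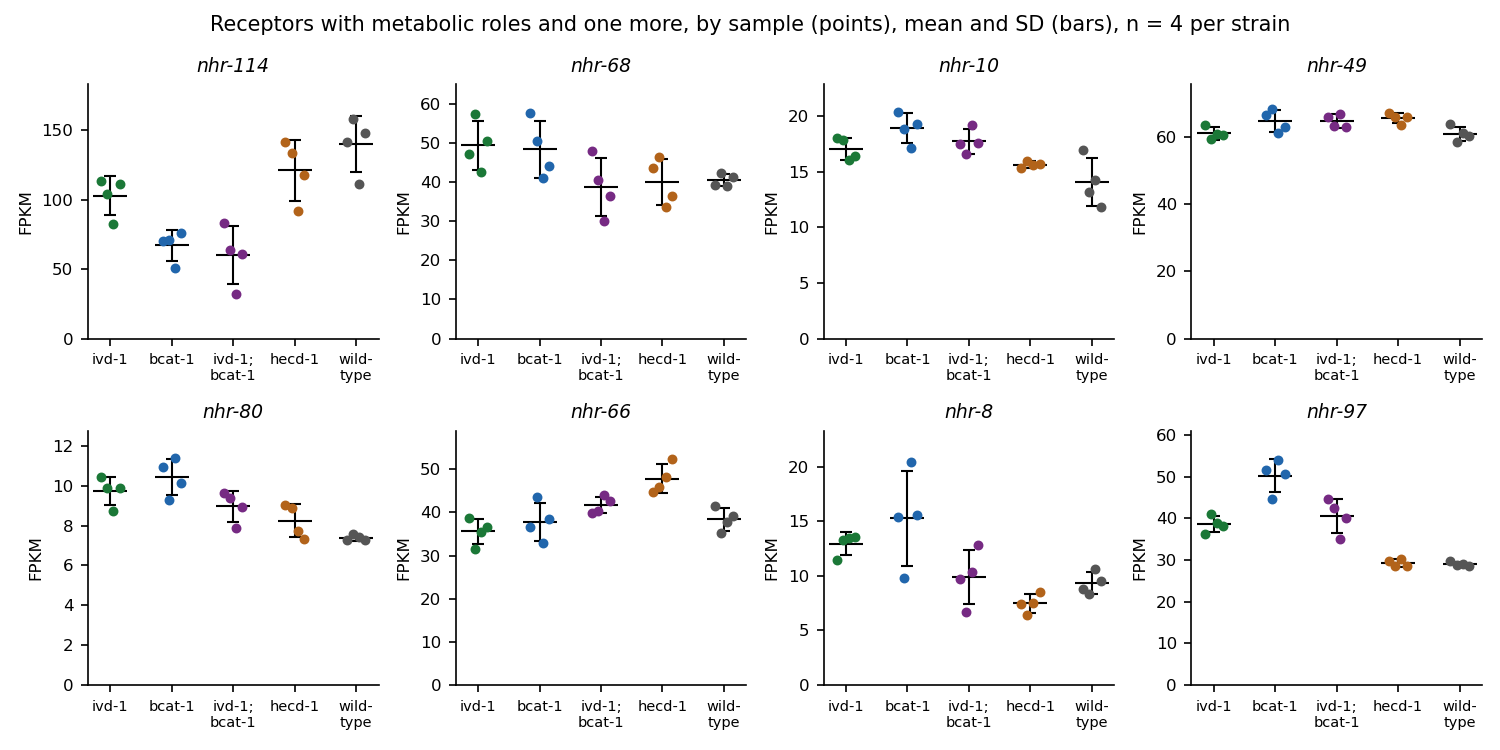
FPKM (vertical, linear from 0) of 7 receptors with metabolic roles and of nhr-97 in each of the 20 samples by strain, with the mean and SD of the 4 replicates. All bcat-1(hh58) and double mutant samples of nhr-114 lie below wild-type, those of nhr-97 above it, under all 3 scalings by the test, and the samples of nhr-49 stay between 58.5 and 68.2.

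NHR-49, often compared to vertebrate PPAR-alpha for its part in fat breakdown, had the second-highest mean in wild-type and little spread between the strains. The FPKM of nhr-49 was 63.4, 59.2, 60.7 and 60.5 in ivd-1(tm6784), 66.6, 68.2, 60.9 and 62.8 FPKM in bcat-1(hh58), 65.8, 63.1, 66.8 and 62.9 in the double mutant and 67.0, 65.8, 63.5 and 65.8 in hecd-1(tm2371), against 63.6, 58.5, 61.1 and 60.1 in wild-type. Its log2 fold change against wild-type lay between 0.00 in ivd-1(tm6784) and 0.11 in hecd-1(tm2371), each with an SE of 0.04 and no call. Of 10 genes known to depend on NHR-49, 3 rose and 2 fell in ivd-1(tm6784), 2 rose and 2 fell among those of bcat-1(hh58), 3 rose and 4 fell in the double mutant, and 2 fell in hecd-1(tm2371). The shares of all genes called higher and lower were 19.9% and 2.88% for ivd-1(tm6784), 33.9% and 10.3% for bcat-1(hh58), 26.4% and 11.9% for the double mutant and 14.0% and 7.15% for hecd-1(tm2371). Median-of-ratios scaling gave 3 higher and 3 lower for ivd-1(tm6784), 2 and 4 for bcat-1(hh58) and 2 and 4 for the double mutant.

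NHR-80, which acts with NHR-49 on the fatty acid desaturases, was higher in the 3 branched-chain amino acid mutants on the deposited FPKM. The FPKM of nhr-80 was 10.5, 9.88, 8.73 and 9.90 in ivd-1(tm6784), 10.9, 9.31, 11.4 and 10.1 FPKM in bcat-1(hh58) and 9.63, 9.41, 7.90 and 8.96 in the double mutant, against 7.27, 7.58, 7.44 and 7.30 in wild-type. No sample of these mutants overlapped wild-type. The log2 fold change of nhr-80 was 0.37 ± 0.08 for ivd-1(tm6784) (SE, adjusted p = 0.004), 0.47 in bcat-1(hh58) (adjusted p = 0.0002) and 0.26 in the double mutant (adjusted p = 0.022). After quantile normalization the 3 values were 0.05, 0.01 and 0.05 and none was called. The call in the double mutant was also lost under median-of-ratios scaling and without replicate 1 (adjusted p = 0.0624) or replicate 2 of the double mutant.

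Among the 8 receptors with lipid roles, 2 were higher in ivd-1(tm6784), 3 for bcat-1(hh58) and 2 in the double mutant, with 0 lower in these strains by limma. In hecd-1(tm2371) 2 were higher and 1 lower. With 19.9%, 33.9%, 26.4% and 14.0% of all genes called higher in these strains, those of the 3 branched-chain amino acid mutants lay near the background for a list of 8 genes. Quantile normalization left 1 of them higher in the double mutant and 3 lower in bcat-1(hh58). nhr-64, which is linked to fat desaturation, had means of 8.32 ± 0.42 FPKM in ivd-1(tm6784), 9.19 ± 1.1 FPKM in bcat-1(hh58) and 8.56 ± 0.34 FPKM in the double mutant, against 6.07 ± 0.51 FPKM in wild-type (SD, n = 4 each). Its rise of 0.47 on the log2 scale in the double mutant held under all 3 scalings, while those of 0.43 in ivd-1(tm6784) and 0.56 for bcat-1(hh58) were not called after quantile normalization. nhr-69, an HNF4-like receptor linked to insulin release, rose in bcat-1(hh58), at 14.8 ± 1.1 FPKM against 11.4 ± 0.43 FPKM in wild-type, but was not called under median-of-ratios scaling and turned to -0.025 after quantile normalization. nhr-66, a partner of NHR-49, was highest in hecd-1(tm2371), at 44.8, 45.8, 48.1 and 52.5 FPKM, against 41.4, 35.3, 37.7 and 39.1 FPKM in wild-type. The groups did not overlap, and the log2 fold change of 0.31 (adjusted p = 0.011) was not called under the other 2 scalings. nhr-13 behaved alike, at 12.9 ± 0.39 FPKM in hecd-1(tm2371) against 10.3 ± 0.97 FPKM in wild-type, and was not called under the other scalings or without wild-type replicate 2 (adjusted p = 0.0697) or hecd-1(tm2371) replicate 3. nhr-76, through which serotonin acts on fat loss, fell in hecd-1(tm2371) by 0.39 on the log2 scale, but the call was lost without any of 6 samples, among them wild-type replicate 2 (adjusted p = 0.155). nhr-62, which acts in dietary restriction, had no call against wild-type and was lower in the double mutant than in ivd-1(tm6784), by -0.59 (adjusted p = 0.0055), a call lost after quantile normalization.

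Of the 5 receptors for sterols, toxins and stress, 2 were higher in ivd-1(tm6784), 3 for bcat-1(hh58), 2 in the double mutant and 1 in hecd-1(tm2371), with 0 lower by limma, where all genes had 19.9%, 33.9%, 26.4% and 14.0% higher. Quantile normalization left 2 higher in the double mutant and 2 lower in bcat-1(hh58). nhr-14, which acts in iron handling and defence, had 15.2, 12.97, 12.1 and 11.3 FPKM in bcat-1(hh58) and 13.4, 13.3, 10.3 and 10.3 FPKM in the double mutant, against 7.01, 8.36, 7.88 and 7.57 FPKM in wild-type. Neither mutant overlapped wild-type, while ivd-1(tm6784) did, at 7.22, 8.76, 9.52 and 7.11 FPKM. The double mutant was higher than wild-type by 0.58 (adjusted p = 0.0029) and higher than ivd-1(tm6784) by 0.51 (adjusted p = 0.0065), both under all scalings, while the rise of 0.70 in bcat-1(hh58) was not called after quantile normalization. nhr-176, which drives detoxifying cytochrome P450 genes, rose by 0.47 for ivd-1(tm6784), 0.88 for bcat-1(hh58) and 0.77 in the double mutant, and after quantile normalization only the last of these was called. nhr-8, a relative of DAF-12 that acts in cholesterol balance and drug resistance, had 15.4, 9.83, 20.5 and 15.6 FPKM in bcat-1(hh58), against 8.80, 8.33, 10.7 and 9.57 FPKM in wild-type. Replicate 2 of bcat-1(hh58) lay within wild-type, and the log2 fold change of 0.65 (adjusted p = 0.0083) was not called after quantile normalization. nhr-57, a hypoxia-induced receptor, rose by 0.45 in ivd-1(tm6784) (adjusted p = 0.017), but not after quantile normalization nor without wild-type replicate 4 (adjusted p = 0.06) or 3. nhr-86, which senses a bacterial metabolite, rose by 0.26 in hecd-1(tm2371) (adjusted p = 0.017), but not under the other scalings nor without hecd-1(tm2371) replicate 4 (adjusted p = 0.0618) or wild-type replicate 1 or 3.

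Of the 8 receptors with roles in development, 6 were higher in bcat-1(hh58), 5 in the double mutant and 3 in ivd-1(tm6784), while 1 was lower in the double mutant and 1 in hecd-1(tm2371). Of all genes, 33.9%, 26.4% and 19.9% were higher in the first 3, and 11.9% and 7.15% lower in the last 2. Quantile normalization left 3 higher in bcat-1(hh58) and 3 in the double mutant, and 0 for ivd-1(tm6784) by limma. nhr-67, the worm counterpart of tailless, which shapes the anchor cell, had 1.74, 1.69, 1.43 and 1.40 FPKM in bcat-1(hh58) and 1.52, 1.497, 1.29 and 0.951 FPKM in the double mutant, against 0.441, 0.525, 0.290 and 0.357 FPKM in wild-type. The groups did not overlap, and the log2 fold changes of 1.20 ± 0.14 (SE, adjusted p = 2.2e-06) and 1.00 (adjusted p = 2.8e-05) held under all scalings. nhr-41, of the TR2 and TR4 type, rose by 1.07 in bcat-1(hh58) and 0.93 in the double mutant, and nhr-6, the NR4A counterpart that shapes the spermatheca, by 1.05 and 0.78, all called under every scaling. nhr-67 and nhr-41 were also called higher in ivd-1(tm6784) on the deposited FPKM, by 0.46 and 0.71, but not under all scalings. nhr-2, which acts in the early embryo, stood apart in the double mutant, at 17.03, 16.01, 22.4 and 18.6 FPKM, against 13.1, 8.43, 8.89 and 12.7 FPKM in wild-type. Its rise of 0.77 (adjusted p = 0.0072) was not called after quantile normalization. Compared with ivd-1(tm6784), nhr-2 was higher in the double mutant by 0.98, a call that held under all 3 scalings. The summed FPKM of 9 embryo markers, in the order of the replicates, was 123, 122, 155 and 134 in the double mutant, against 116, 97.9, 99.6 and 110 in wild-type. In both of these strains nhr-2 and the sum ranked the replicates in the same order. In hecd-1(tm2371), where nhr-2 had a log2 fold change of -0.01 and no call, the sum was 119 to 150.4 FPKM. On the deposited FPKM 5 of 8 embryo markers tested were called higher in the double mutant, with a median log2 fold change of 0.96. In hecd-1(tm2371) it was 1 of 8, with a median of 0.30, where 26.4% and 14.0% of all genes were higher in these strains. Quantile normalization left 2 and 0 of these markers higher. The part of embryo content in nhr-2 was not tested. nhr-31, which is needed for the excretory canal, was the member that fell, at 14.1, 14.4, 8.06 and 12.2 FPKM in the double mutant and 13.5, 11.8, 10.9 and 10.04 FPKM in hecd-1(tm2371), against 15.1, 16.8, 16.2 and 18.6 FPKM in wild-type. The log2 fold changes of nhr-31 were -0.47 in the double mutant (adjusted p = 0.016) and -0.52 in hecd-1(tm2371) (adjusted p = 0.017). Neither strain overlapped wild-type, and both calls held under all scalings, but that of hecd-1(tm2371) was lost without hecd-1(tm2371) replicate 4 (adjusted p = 0.0617). nhr-40, which acts in muscle development, rose by 0.25 for ivd-1(tm6784), 0.41 for bcat-1(hh58) and 0.40 for the double mutant, but after quantile normalization none was called and the single mutants turned to -0.063 and -0.035. nhr-85 and nhr-91 rose in bcat-1(hh58), by 0.51 and 0.70, and neither was called after quantile normalization, where nhr-85 turned to -0.10. nhr-85 was also not called under median-of-ratios scaling, and it was lost without bcat-1(hh58) replicate 3 (adjusted p = 0.0562).

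Of the 8 members called higher in ivd-1(tm6784) under all 3 scalings, only nhr-53 and nhr-137 were called higher in neither strain with bcat-1(hh58). Others had this pattern on the deposited FPKM, among them nhr-57, nhr-65, nhr-94, nhr-98 and nhr-237. Their calls in ivd-1(tm6784) did not hold under all scalings. nhr-53 (WBGene00003643, V:15700606-15702363) had 6.41, 6.93, 5.42 and 7.01 FPKM in ivd-1(tm6784), 2.59, 1.37, 2.85 and 1.85 FPKM in bcat-1(hh58), 2.04, 1.98, 1.55 and 1.85 FPKM in the double mutant and 2.09, 2.01, 2.43 and 2.84 FPKM in hecd-1(tm2371), against 2.86, 1.73, 1.57 and 1.09 FPKM in wild-type. No sample of another strain reached the lowest of ivd-1(tm6784). The log2 fold change of nhr-53 against wild-type was 1.63 ± 0.20 in ivd-1(tm6784) (SE, adjusted p = 4e-05). The double mutant was lower than ivd-1(tm6784) by -1.56 (adjusted p = 3.7e-05), and its own difference from wild-type was 0.08 (adjusted p = 0.8). nhr-137 (WBGene00003727, X:6661772-6669011) had 13.2, 12.6, 10.2 and 11.8 FPKM in ivd-1(tm6784), 6.17, 3.99, 4.51 and 5.36 FPKM in bcat-1(hh58), 3.68, 3.13, 3.78 and 4.16 FPKM in the double mutant and 5.60, 5.10, 4.25 and 5.95 FPKM in hecd-1(tm2371), against 6.44, 5.36, 4.12 and 4.67 FPKM in wild-type. The difference of nhr-137 on the log2 scale was 1.15 ± 0.14 in ivd-1(tm6784) (SE, adjusted p = 4.3e-05), and the double mutant was lower than ivd-1(tm6784) by -1.57 (adjusted p = 8.8e-07). These calls of nhr-53 and nhr-137 held under all scalings and without any single sample. The double mutant was also lower than wild-type in nhr-137, by -0.42 (adjusted p = 0.028), which was lost without wild-type replicate 1 (adjusted p = 0.102) or 2 or replicate 2 of the double mutant. The other members with the same ivd-1(tm6784) call under all scalings were nhr-19, nhr-34, nhr-88, nhr-97, nhr-99 and nhr-105, all higher.

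The largest rises in bcat-1(hh58) were those of nhr-99, nhr-112, nhr-117, nhr-21 and nhr-63, for which no function is given here. nhr-99 had 5.67, 2.88, 5.58 and 4.33 FPKM in bcat-1(hh58), 3.61, 3.69, 2.89 and 2.73 FPKM in the double mutant and 2.27, 3.48, 2.82 and 2.40 FPKM in ivd-1(tm6784), against 0.901, 1.09, 1.00 and 0.957 FPKM in wild-type. All samples of the 3 mutants lay above wild-type. The log2 fold change of nhr-99 was 1.74 ± 0.17 in bcat-1(hh58) (SE, adjusted p = 5.6e-07), 1.32 in the double mutant (adjusted p = 1.9e-05) and 1.11 for ivd-1(tm6784) (adjusted p = 0.00021). nhr-21 had 21.1, 13.2, 16.6 and 19.2 FPKM in bcat-1(hh58) and 10.7, 8.66, 15.4 and 13.5 FPKM in the double mutant, against 6.22, 5.79, 5.11 and 4.66 FPKM in wild-type, with log2 fold changes of 1.59 ± 0.16 (SE, adjusted p = 7.9e-07) and 1.06 (adjusted p = 9.9e-05). nhr-117 had 8.07, 5.98, 5.41 and 4.90 FPKM in bcat-1(hh58) and 6.19, 5.85, 4.68 and 4.399 FPKM in the double mutant, against 1.81, 2.05, 1.68 and 1.14 FPKM in wild-type. Its log2 fold changes were 1.60 (adjusted p = 1.1e-06) and 1.42 (adjusted p = 7.4e-06). nhr-112 averaged 4.28 ± 1.7 FPKM in bcat-1(hh58) and 2.40 ± 0.37 FPKM in the double mutant, against 0.914 ± 0.12 FPKM in wild-type (SD, n = 4 each), and its log2 fold changes were 1.69 and 1.03. nhr-63 averaged 3.31 ± 1.7 FPKM in bcat-1(hh58) and 1.94 ± 0.48 FPKM in the double mutant, against 0.785 ± 0.17 FPKM in wild-type, with log2 fold changes of 1.45 and 0.91. Each of these calls held under all 3 scalings and without any single sample. On the deposited FPKM nhr-21, nhr-117, nhr-112 and nhr-63 were also called higher in ivd-1(tm6784), by 0.66 for nhr-21. Those ivd-1(tm6784) calls did not hold under all 3 scalings. In nhr-99, nhr-112, nhr-21 and nhr-63 replicate 2 was the lowest of the bcat-1(hh58) samples. It also had the lowest molting sum of that strain.

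nhr-97, the fifth-highest receptor in wild-type, had little spread within the strains. Its FPKM was 36.3, 41.0, 38.9 and 38.2 in ivd-1(tm6784), 51.5, 44.7, 53.9 and 50.7 FPKM in bcat-1(hh58) and 44.6, 42.4, 35.1 and 40.1 in the double mutant, against 29.8, 28.7, 29.1 and 28.5 in wild-type. The log2 fold change of nhr-97 was 0.40 ± 0.07 for ivd-1(tm6784) (SE, adjusted p = 0.00031), 0.78 in bcat-1(hh58) (adjusted p = 1.1e-07) and 0.47 in the double mutant (adjusted p = 3.7e-05), under all scalings. The hecd-1(tm2371) samples had 29.8, 28.5, 30.3 and 28.5 FPKM and overlapped wild-type. The double mutant was lower than bcat-1(hh58) by -0.31 (adjusted p = 0.01).

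**Figure D5:**
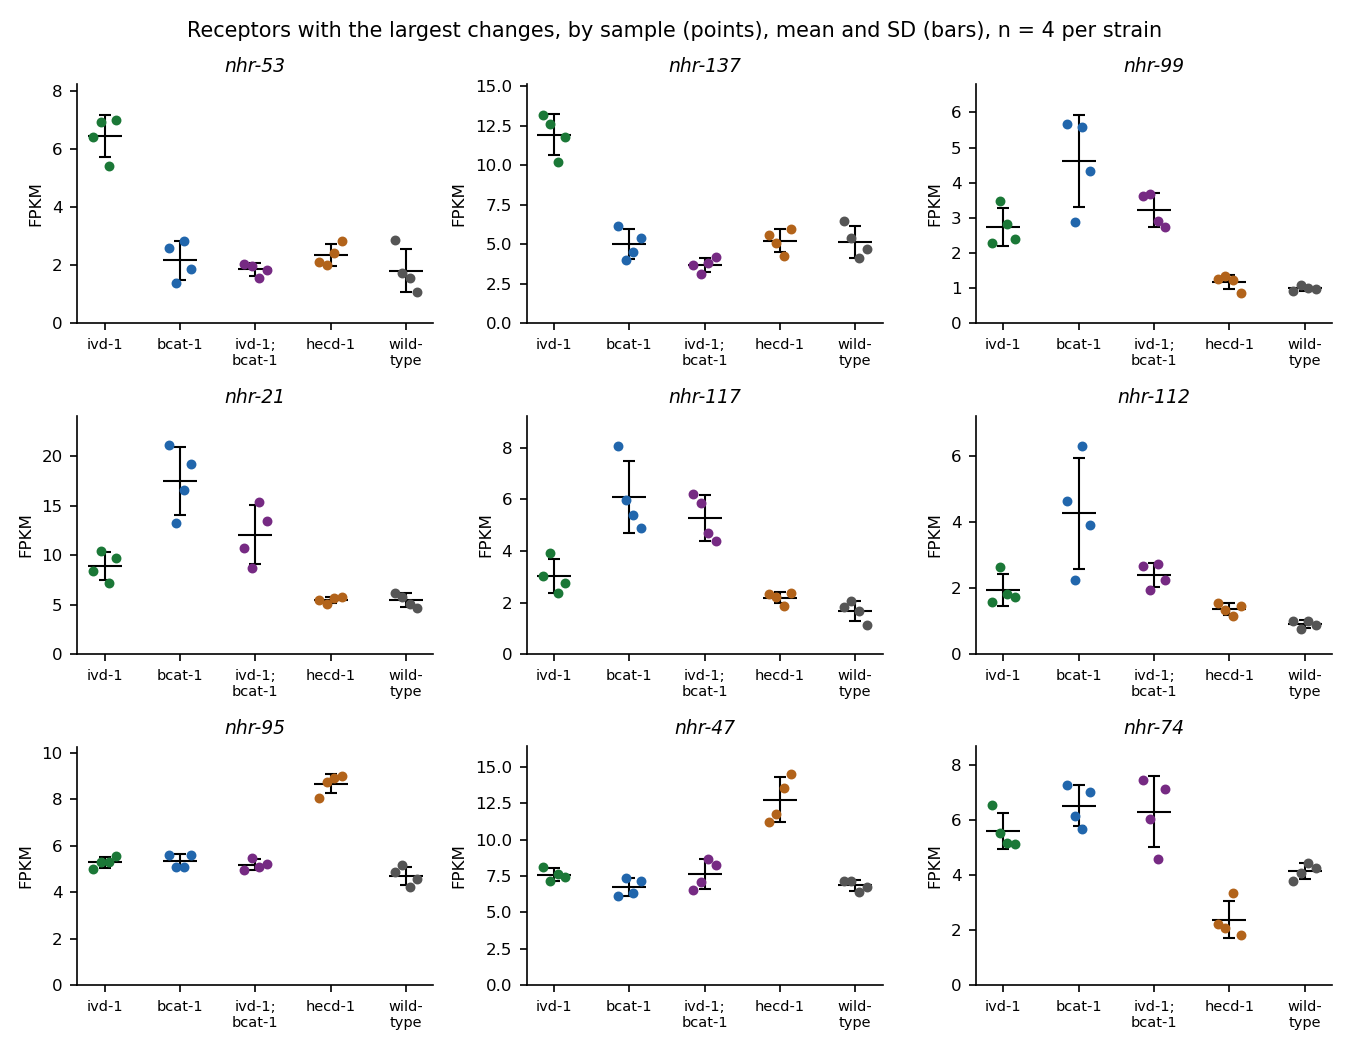
FPKM (vertical, linear from 0) of 9 receptors with large changes in each of the 20 samples by strain, with the mean and SD of the 4 replicates. nhr-53 and nhr-137 are high in ivd-1(tm6784) alone among the 5 strains, nhr-95 and nhr-47 in hecd-1(tm2371), and nhr-74 is lowest there, calls that held under all 3 scalings.

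Besides nhr-114, the receptor that fell in bcat-1(hh58) was nhr-235, at 0.4997, 1.36, 0.598 and 0.630 FPKM, against 1.78, 2.20, 2.24 and 1.36 FPKM in wild-type. Replicate 2 of bcat-1(hh58) reached the lowest wild-type sample. In the double mutant nhr-235 had 1.105, 0.991, 0.367 and 0.895 FPKM, below all of wild-type. The log2 fold changes were -0.94 ± 0.24 (SE, adjusted p = 0.0039) and -0.86 (adjusted p = 0.0094), under all scalings. The receptors lower in the double mutant under all scalings were nhr-31, nhr-101, nhr-114, nhr-137, nhr-156 and nhr-235. Of these, nhr-156 had 1.43, 1.39, 1.23 and 0.823 FPKM in the double mutant, against 3.99, 4.22, 2.30 and 3.33 FPKM in ivd-1(tm6784) and 3.24, 2.49, 2.03 and 2.64 FPKM in wild-type, and it was lower than wild-type by -0.85 (adjusted p = 0.0047).

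In hecd-1(tm2371) single receptors moved in both directions, and the 20 called against wild-type became 12 without its replicate 4. All genes fell likewise in that fit, from 14.0% higher and 7.15% lower to 7.53% and 4.78%. nhr-95 had 8.07, 8.75, 8.92 and 8.99 FPKM in hecd-1(tm2371), against 4.94 to 5.63 FPKM in the other mutants and 4.86, 5.16, 4.22 and 4.59 FPKM in wild-type. Its log2 fold change was 0.82 ± 0.07 (SE, adjusted p = 7.9e-07). nhr-47 had 11.2, 11.7, 13.6 and 14.5 FPKM in hecd-1(tm2371), against 7.19, 7.13, 6.38 and 6.75 FPKM in wild-type, a log2 fold change of 0.84 ± 0.10 (SE, adjusted p = 1.8e-05). nhr-74 had 2.22, 2.09, 3.36 and 1.84 FPKM in hecd-1(tm2371), against 3.77, 4.09, 4.46 and 4.26 FPKM in wild-type, a fall of -0.72 (adjusted p = 0.0038). nhr-90 was lower likewise, by -0.53 (adjusted p = 0.0067), with 3.25, 3.09, 2.58 and 2.13 FPKM in hecd-1(tm2371), against 4.64, 4.18, 3.80 and 4.11 FPKM in wild-type. These 4 genes did not overlap wild-type and held under all scalings and without any single sample. nhr-11 rose by 0.71 (adjusted p = 0.015), a call lost without hecd-1(tm2371) replicate 4 (adjusted p = 0.0545) or wild-type replicate 2. In ivd-1(tm6784) set directly against hecd-1(tm2371), 73 members were higher and 9 lower, against 27.3% and 22.6% of all genes, but quantile normalization gave 19 (10.7%) higher and 21 (11.8%) lower, against 15.5% and 28.1% of all genes. nhr-95 and nhr-47 were lower in ivd-1(tm6784) than in hecd-1(tm2371), by -0.66 (adjusted p = 3.5e-06) and -0.71 (adjusted p = 3.9e-05), and nhr-74 was higher by 1.1 (adjusted p = 4.1e-05), all 3 under every scaling.

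The remaining comparisons set the strains of the branched-chain amino acid pathway against each other, and they share samples with those above. The double mutant against ivd-1(tm6784) gave 22 members higher and 19 lower, where 21.4% of all genes were called higher and 23.2% lower, so the receptors (12.4% and 10.7%) lay below the background. Quantile normalization turned this to 46 (25.8%) higher and 10 (5.62%) lower, against 27.5% and 19%. The double mutant against bcat-1(hh58) gave 0 members higher and 22 lower by limma, against 3.93% and 19.5% of all genes, and 5 higher and 54 lower at an unadjusted p under 0.05. That count rested on the setting: it was 0 in both directions when the model held these 2 strains alone, and 23 (12.9%) higher and 4 (2.25%) lower after quantile normalization, against 20.9% and 11.5% of all genes. It was 60 without bcat-1(hh58) replicate 2 and 4 without its replicate 1. All genes moved likewise, to 17.5% higher and 30.8% lower in the first of these fits and to 0.326% and 5.03% in the second. bcat-1(hh58) against ivd-1(tm6784) gave 32 members (18.0%) higher and 6 (3.37%) lower, against 13.2% and 6.29%. With only these 2 strains in the model it was 14 (7.87%) and 5 (2.81%), against 7.18% and 4.00%, and after quantile normalization 16 (8.99%) and 9 (5.06%), against 9% and 9.46%. Under all scalings nhr-117, nhr-21 and nhr-67 were higher in bcat-1(hh58) relative to ivd-1(tm6784), by 0.90, 0.93 and 0.73, and nhr-53, nhr-137, nhr-156 and nhr-235 were lower, by -1.41, -1.19, -0.78 and -1.0.

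The interaction of both mutations asked whether the change from bcat-1(hh58) differs between the ivd-1(tm6784) and the wild-type background. It was called below 0 for 94 members (52.8%) and above 0 for 2 (1.12%), against 35.3% and 12.2% of all genes, with a median of -0.51 over the members and -0.19 over all genes. A negative value means that the double mutant lies below the sum of both single changes. Quantile normalization turned this to 12 members (6.74%) called below 0 and 48 (27%) above, against 16.8% and 37% of all genes, having moved the median of all genes by 0.39. Among the named receptors the interaction was below 0 under all scalings for nhr-53 (-1.78, adjusted p = 0.00019), nhr-137 (-1.54, adjusted p = 4.4e-05), nhr-99 (-1.54, adjusted p = 0.00017), nhr-50 (-1.42, adjusted p = 0.00011), nhr-19 (-1.35, adjusted p = 5.7e-05), nhr-21 (-1.19, adjusted p = 0.00085) and nhr-97 (-0.71, adjusted p = 4e-05). For nhr-114 it was 0.22 (adjusted p = 0.57), with values of -0.44 in ivd-1(tm6784), of -1.06 in the other single mutant and of -1.28 in the double mutant. nhr-113, at the edge of the rule, was listed at 0 in 2 hecd-1(tm2371) samples and 1 wild-type sample and at 0.450, 0.507, 1.41 and 0.823 FPKM in bcat-1(hh58). Of the 178 members, 31 were called in none of the 9 comparisons.

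Among the partners of the receptors, the Mediator subunit gene mdt-15 had 49.7, 45.6, 48.7 and 47.0 FPKM in bcat-1(hh58), against 43.1, 41.1, 39.8 and 41.8 FPKM in wild-type, a difference of 0.20 (adjusted p = 0.00034). It was also higher in the double mutant, by 0.13 (adjusted p = 0.012). The call in bcat-1(hh58) was lost under median-of-ratios scaling, and that in the double mutant under both other scalings. The histone acetyltransferase gene cbp-1 rose by 0.24 in the double mutant (adjusted p = 0.0087) and by 0.20 in hecd-1(tm2371) (adjusted p = 0.039) on the deposited FPKM, and neither was called under the other 2 scalings. Relative to ivd-1(tm6784), the double mutant was higher in mdt-15 by 0.14 (adjusted p = 0.0085) and in cbp-1 by 0.29 (adjusted p = 0.0031). Both calls held under all 3 scalings. So did a lower cbp-1 in ivd-1(tm6784) than in hecd-1(tm2371), by -0.25 (adjusted p = 0.00585). Of 5 receptors of the superfamily with other names, daf-12 and sex-1 were tested, and sex-1 rose by 0.86 in the double mutant under all 3 scalings, while its rise of 0.55 in bcat-1(hh58) was not called under the other 2. daf-12 was called lower after quantile normalization alone, by -0.34 for ivd-1(tm6784) and by -0.28 for bcat-1(hh58). Of the 9 receptors of subfamilies shared with other animals, 7 passed the rule, of which 2 were higher for ivd-1(tm6784), 6 for bcat-1(hh58) and 3 in the double mutant, where all genes had 19.9%, 33.9% and 26.4%. They include receptors already counted above, among them nhr-6, nhr-8 and nhr-41, so these counts are not a separate result. Quantile normalization left 0 higher and 1 lower for ivd-1(tm6784), 3 higher and 1 lower for bcat-1(hh58) and 3 higher in the double mutant.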

How the data were processed

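Stranded poly-A libraries were aligned by the authors with Tophat2, and they made the deposited FPKM with Cufflinks2 on Ensembl release 93. FPKM are not counts, so no count model was used. Symbols came from the given name table (43325 of 46284 IDs). Positions came from Ensembl release 115 (WBcel235), and those of the authors' release were not compared. Values were taken as log2(FPKM + 0.5) over the 15957 genes with 0.5 FPKM in at least 4 samples, so fold changes of low genes are understated. limma 3.58.1 (R 4.3.3) was run with lmFit, contrasts.fit and eBayes with trend, strain only, all 20 samples, 9 comparisons, and was tested on simulated data. Python 3.11.15 drew plots. Alternatives were pseudocounts of 0.1 and 1, no filter, a mean of 1 FPKM, 2 other scalings, the replicate number as a block, an adjusted p of 0.01, only the strains compared, and each sample left out. The members, lists and tests were chosen with earlier results of these data known. Named genes are members of the role lists, the 5 with the largest called change per comparison, the 5 highest in wild-type and 2 on each side of the rule. Genes named for keeping a call under all scalings were chosen after their values were seen.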

Additional observations from a re-analysis of the deposited data

Results flagged for a closer look

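In 7 of 215 strain groups of the 43 named receptors 1 sample stood apart from the other 3, by the gap to its neighbour as a share of the range of the group, which chance would give in about 5 of 100 groups. For nhr-235 in bcat-1(hh58) the share was 0.849, with replicate 2 at 1.36 FPKM in a range of 0.5 to 1.36 FPKM. For nhr-235 in hecd-1(tm2371) the share was 0.954, with replicate 1 at 3.12 FPKM in a range of 1.64 to 3.12 FPKM. For nhr-260 in the double mutant the share was 0.862, with replicate 3 at 0.152 FPKM in a range of 0.152 to 0.45 FPKM. For nhr-260 in hecd-1(tm2371) the share was 0.871, with replicate 2 at 0.499 FPKM in a range of 0.361 to 0.499 FPKM. For nhr-62 in bcat-1(hh58) the share was 0.949, with replicate 4 at 2.21 FPKM in a range of 2.21 to 2.51 FPKM. For nhr-8 in ivd-1(tm6784) the share was 0.863, with replicate 1 at 11.4 FPKM in a range of 11.4 to 13.6 FPKM. For nhr-90 in the double mutant the share was 0.858, with replicate 4 at 5.73 FPKM in a range of 5.01 to 5.73 FPKM. 

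For 26 named receptors the log2 change from bcat-1(hh58) in the ivd-1(tm6784) background differed from that in the wild-type background by limma's interaction test. All 26 differences were below 0 on the deposited FPKM, where 35.3% of all genes were called below 0 and 12.2% above. They were nhr-53 (-1.78), nhr-137 (-1.54), nhr-99 (-1.54), nhr-63 (-1.52), nhr-113 (-1.47), nhr-112 (-1.43), nhr-50 (-1.42), nhr-19 (-1.35), nhr-21 (-1.19), nhr-8 (-1.04), nhr-91 (-0.92), nhr-117 (-0.88), nhr-41 (-0.85), nhr-156 (-0.75), nhr-11 (-0.73), nhr-6 (-0.73), nhr-97 (-0.71), nhr-67 (-0.66), nhr-68 (-0.60), nhr-176 (-0.59), nhr-80 (-0.58), nhr-31 (-0.57), nhr-64 (-0.52), nhr-90 (-0.46), nhr-10 (-0.37) and nhr-40 (-0.26). The values of nhr-6, nhr-11, nhr-40, nhr-64, nhr-67, nhr-90, nhr-156 and nhr-176 turned above 0 after quantile normalization. nhr-113 passed the member rule largely through bcat-1(hh58), so its value is not independent of that rule.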

How the results depend on the processing

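Another pseudocount or filter moved no count of calls by over 1.5 times, while quantile normalization did so or turned the direction in 8 of 9 comparisons. Of 170 called results of named receptors, 79 kept their call in every alternative with all samples and 131 without any single sample. Quantile normalization left 14 receptors called for ivd-1(tm6784), 68 for bcat-1(hh58) (26 higher, 42 lower), 37 in the double mutant and 12 in hecd-1(tm2371) against wild-type. It left 27 for the double mutant against bcat-1(hh58) (23 higher), 25 for bcat-1(hh58) with ivd-1(tm6784) as its reference, 40 for ivd-1(tm6784) against hecd-1(tm2371) and 60 in the interaction. An adjusted p of 0.01 left 36, 53 and 5 in ivd-1(tm6784), the double mutant and hecd-1(tm2371) against wild-type. It left 22 in the double mutant against ivd-1(tm6784), 2 against bcat-1(hh58), 19 when bcat-1(hh58) was set against ivd-1(tm6784), 48 for ivd-1(tm6784) against hecd-1(tm2371) and 55 in the interaction. A model of only the strains compared gave 0 for the double mutant against bcat-1(hh58) and 19 for bcat-1(hh58) over ivd-1(tm6784). The replicate block gave 39 for the double mutant against ivd-1(tm6784) (19 higher, 20 lower), and same-numbered samples did not deviate together throughout. With this block, named receptors that had no call without it were called against wild-type: nhr-114 lower in ivd-1(tm6784) (-0.44, adjusted p = 0.0161 by limma, lower in 4 of 4 same-numbered samples), nhr-68 higher in ivd-1(tm6784) (adjusted p = 0.0386) and in bcat-1(hh58) (adjusted p = 0.0405), and nhr-8 higher in ivd-1(tm6784) (adjusted p = 0.0291). Single receptors turned after quantile normalization: nhr-40 (-0.063 for ivd-1(tm6784), -0.035 for bcat-1(hh58), -0.12 for ivd-1(tm6784) against hecd-1(tm2371)), nhr-69 (-0.025), nhr-85 (-0.10) and nhr-90 (-0.0052) in bcat-1(hh58), nhr-80 in ivd-1(tm6784) against hecd-1(tm2371) (-0.093), and in the interaction nhr-11 (0.16), nhr-156 (0.13), nhr-176 (0.23), nhr-40 (0.28), nhr-6 (0.17), nhr-64 (0.094), nhr-67 (0.15) and nhr-90 (0.29). The cause was not tested. Leaving out each sample gave 45 to 74 receptors for ivd-1(tm6784), 96 to 111 for bcat-1(hh58), 66 to 88 in the double mutant and 12 to 25 in hecd-1(tm2371) against wild-type. It gave 29 to 44 for the double mutant against ivd-1(tm6784), 4 to 60 against bcat-1(hh58), 27 to 48 for bcat-1(hh58) over ivd-1(tm6784), 61 to 87 for ivd-1(tm6784) against hecd-1(tm2371) and 76 to 108 for the interaction. Without hecd-1(tm2371) replicate 4, 12 members were called in that strain, where all samples gave 20. The shares of all genes fell too, to 7.53% higher and 4.78% lower.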
